A study of Caenorhabditis elegans with 6 samples.

Results

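The fbxb and fbxc genes of Caenorhabditis elegans encode F-box proteins, and the protein-coding genes with these symbols in the WBcel235 (ce11) annotation were followed here through a map of contacts with the nuclear envelope. The annotation holds 152 such genes, 104 fbxb and 48 fbxc. A deposited GATC site lay in the gene body or within 500 bp of it for 145 of them, and 142 (102 fbxb and 40 fbxc) had at least 60 reads there over the 6 libraries and were tested among 18651 genes. An F-box is a short protein motif that binds a Skp1-related adaptor, and through it an F-box protein joins the SCF ubiquitin ligase, in which a cullin and a RING subunit carry out ubiquitin transfer and the F-box protein picks the substrate. Nematodes have very many F-box genes, most of them in rapidly evolving families (fbxa, fbxb and fbxc) that lie as tandem copies towards the chromosome ends, and the substrates of most members are not known. In worms the outer parts of the autosomes are the regions usually found at the nuclear envelope.

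The libraries came from DamID, a method in which the methylase Dam of bacteria is tied to a protein of interest, leaves methyl groups on GATC sites in its reach, and so makes those sites selectable for PCR and sequencing. There were 3 libraries of Dam::EMR-1 (strain BN1470), Dam joined to the worm emerin, a LEM-domain protein of the inner nuclear membrane, and 3 of GFP::Dam (strain BN1465), an untethered Dam that records how open chromatin is. The labels give all 6 libraries the genotype WT and the cell type EMS, the founder cell of the intestine and of parts of the pharynx and muscle. Embryos were taken by bleaching 4000 adults per strain after 72 h at 20 °C on bacteria without Dam. Each group is a single strain, so construct and strain cannot be told apart. The deposited tables carry the name of the med-1 promoter, and how Dam was limited to EMS cells is not given in the sources used here. The assay reads DNA, so the cell type could not be checked with marker transcripts. Whether the replicates are separate cultures is not stated in the labels, and p-values measure the spread between these libraries, which may be technical.

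Each table gives a log2 ratio for each of 3 replicate numbers, read as Dam::EMR-1 relative to GFP::Dam, and a gene's ratio is its mean over the sites in its window. Which group is the numerator is not stated in the tables. The order was taken from their naming after EMR-1, and with the opposite order every sign and every assignment of reads to a group would turn. "Enriched" and "depleted" mean a ratio above or below 0 with an adjusted p under 0.05 in limma's test over all 18651 genes. Reads of each library, recovered from the ratios and read sums, came to between 15721786 and 22413678 in Dam::EMR-1 and between 16280809 and 17550445 in GFP::Dam, and a gene's reads are given as CPM, that is scaled to its library's total. The fragments were amplified by 24 PCR cycles, so reads are not independent molecules. How reads that match several places were treated is not given in the sources used here, and the values of near-identical copies in these tandem families are uncertain for that reason.

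Fewer of the fbxb genes were enriched than of all genes, and their depleted share was closer to that of all genes. Of the 102 tested, 14 were enriched (13.7%, against 30.3% of all genes) and 33 were depleted (32.4%, against 27.2% of all genes), and 55 were not called. Their median ratio was -1.08, -0.24 and -1.20 in replicates 1 to 3, a mean of -0.84 ± 0.52 (SD, n = 3), against 0.23 ± 0.12 for all genes. The fbxb median lay below that of all genes in each replicate, by 1.37, 0.55 and 1.29 on the log2 scale in replicates 1, 2 and 3, and a common rescaling of each replicate leaves these differences as they are. The fbxc genes were split more evenly, with 10 of 40 enriched (25%), 12 depleted (30.0%) and 18 not called. When ratios were instead scaled to library totals, 10 were enriched and 8 depleted (33.3% and 24.7% of all genes), and for fbxb genes 15 and 31. The sign of their centre was not settled. The median over the 40 genes' mean ratios was 0.11, while the medians within replicates were -0.85, 0.30 and -0.83, a mean of -0.46 ± 0.66 (SD, n = 3).

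The fbxa family differed in the same libraries. Of 162 fbxa genes, 104 were enriched (64.2%) and 5 depleted (3.09%), and the mean of their replicate medians was 2.92 ± 0.42 (SD, n = 3). The fbxb median was below the fbxa median in each of the 3 replicates, by a mean difference of -3.76 ± 0.55, and so was the fbxc median, by -3.38 ± 0.71 (SD, n = 3). The fbxb and fbxc medians lay closer together, with a difference of -0.38 ± 0.16. No test of these differences between families was run, because the lists were chosen with results of these data known.

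**Figure D1:**
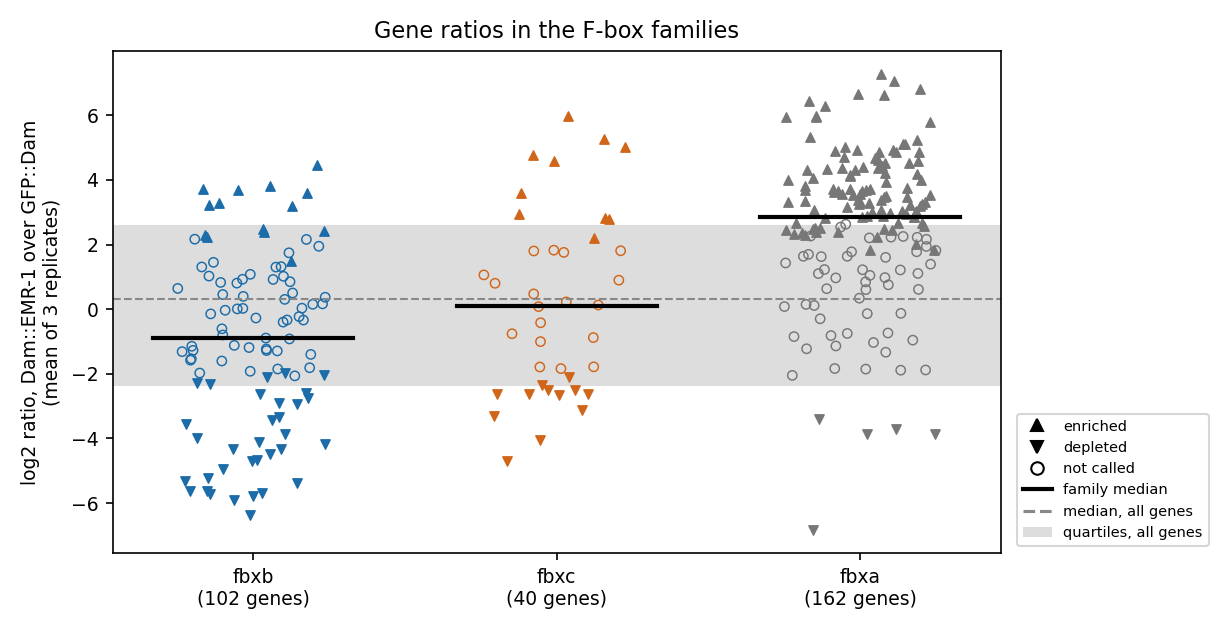
Mean log2 ratio of Dam::EMR-1 over GFP::Dam (y axis) for each tested gene of the fbxb, fbxc and fbxa families (x axis, points spread sideways at random). Triangles up are enriched genes, triangles down depleted genes and circles genes not called; the thick line is the family median of the genes' mean ratios, the dashed line the median of all genes (0.31) and the grey band their quartiles (-2.35 to 2.57). The fbxb and fbxc genes spread on both sides of the band, and 104 of 162 fbxa genes are enriched.

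Read levels per library are on a scale that does not rest on the authors' centring. The median fbxb gene had a mean of 19.4 CPM in Dam::EMR-1 and of 19 CPM in GFP::Dam, and the median fbxc gene 15.1 and 10.2 CPM. The median over all genes was 16.2 and 8.69 CPM, and that over fbxa genes 28.3 and 2.17 CPM. The GFP::Dam level of the median fbxb gene lay above that of the median gene, and that of the median fbxa gene below it. These levels sum over a gene's sites and were not divided by length; the median number of sites was 5 for fbxb, 7 for fbxc and 6 for fbxa genes. In 12 fbxb genes every Dam::EMR-1 library was above every GFP::Dam library, and in 32 every one was below (11.8% and 31.4%, against 36.1% and 24.5% of all genes). Among fbxc genes 14 were higher without overlap (35.0%) and 9 were lower (22.5%), shares near those of all genes, whereas the ratio calls gave 10 and 12.

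The calls with the smallest adjusted p among fbxb genes were depletions, and the first 3 of these lay on chromosome IV. On that chromosome 7 of 9 tested fbxb genes were depleted, none was enriched, and their median ratio was -4.67. Of all genes 27.2% were depleted. The left, middle and right segments of IV hold 5, 3 and 1 of the 9. Of the other genes there, 18.5%, 34.7% and 20.4% were depleted, and 41.7%, 18.9% and 43.2% enriched. The substrates of the proteins that the 9 fbxb genes encode are not known. fbxb-76 (IV, 11378171 to 11379354) gave 17.9, 94.1 and 17.7 CPM in Dam::EMR-1 replicates 1 to 3 and 2689, 2752 and 2622 CPM in GFP::Dam. Every GFP::Dam library was far above every Dam::EMR-1 library, and with 140044 reads it had the most reads of all members. Its ratio was -6.36 ± 0.49 (SE, n = 3; limma, adjusted p = 1.64e-05), and all 5 of its sites lay below 0.

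fbxb-74 (IV, 4437758 to 4439290) and fbxb-75 (IV, 4439824 to 4441177) are neighbours, and both were depleted. Their windows overlap, so their values may not be independent. fbxb-75 gave 34.3, 5.22 and 11.1 CPM in Dam::EMR-1 and 1315, 1055 and 1039 CPM in GFP::Dam, for a ratio of -5.69 ± 0.48 (SE, n = 3; limma, adjusted p = 2.28e-05). fbxb-74 gave 34.7, 64.4 and 7.95 CPM in Dam::EMR-1 and 943, 1047 and 962 CPM in GFP::Dam, for a ratio of -4.67 ± 0.40 (SE, n = 3; limma, adjusted p = 2.53e-05). In both genes the groups were far apart, and the 3 ratios of fbxb-74 were within an SD of 0.11. The remaining depleted fbxb genes of the chromosome were fbxb-77, fbxb-78, fbxb-9 and fbxb-3, named here after their values were seen, with ratios of -5.79, -5.21, -4.0 and -4.11.

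On chromosome II the depleted fbxb genes included several from short tandem groups. fbxb-16 (II, 1650595 to 1651904), which shares sites with fbxb-15 and fbxb-20, gave 14.8, 4.01 and 33.2 CPM in Dam::EMR-1 and 588, 515 and 376 CPM in GFP::Dam. Its groups did not overlap, all 11 sites were below 0, and the ratio was -4.93 ± 0.49 (SE, n = 3; limma, adjusted p = 4.78e-05). fbxb-41 (II, 1041318 to 1042327) had no reads in the first Dam::EMR-1 library and 18.9 and 3.17 CPM in the others, against 56.1, 94.2 and 85.1 CPM in GFP::Dam. Its ratio was -5.89 ± 0.73 (SE, n = 3; limma, adjusted p = 0.000161), and edgeR's test on the summed reads did not call it (log2 change -4.22, adjusted p = 0.0885). fbxb-42 (II, 1537621 to 1538665) had 0, 0 and 0.633 CPM in Dam::EMR-1 and 11.6, 11.9 and 22.6 CPM in GFP::Dam, and its ratio was -5.72 ± 0.79 (SE, n = 3; limma, adjusted p = 0.000288). fbxb-41 and fbxb-42 each share a site with a neighbouring member, so their values are not independent of fbxb-39, fbxb-45 and fbxb-44.

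Enriched fbxb genes were fewer, and most of those with at least 200 reads and 3 ratios of the same sign lay on V, X and I. fbxb-58 (X, 1628137 to 1629454) gave 47.0, 49.9 and 35.5 CPM in Dam::EMR-1 and 9.0, 0 and 0.0572 CPM in GFP::Dam, so that 2 of its 3 GFP::Dam libraries were close to empty. Its ratio was 3.71 ± 0.72 (SE, n = 3; limma, adjusted p = 0.00179) with all 5 sites above 0, but edgeR's test on reads gave an adjusted p = 0.232. fbxb-59 (V, 20204524 to 20206186) gave 11.4, 14.1 and 15.0 CPM against 1.48, 0.614 and 1.43 CPM, and its groups did not overlap. Its ratio was 3.60 ± 0.79 (SE, n = 3; limma, adjusted p = 0.00368; edgeR, 0.0713).

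In some enriched fbxb genes the sites or the libraries disagreed. The enriched fbxb gene with the smallest adjusted p was fbxb-64 (V, 19313275 to 19316512), whose ratio was 3.21 ± 0.58 (SE, n = 3; limma, adjusted p = 0.0013). Its reads were 83.9, 232 and 176 CPM in Dam::EMR-1 and 56.0, 61.3 and 114 CPM in GFP::Dam. These groups overlap, 4 of its sites were above 0 and 3 below, and the edgeR log2 change was 0.38 (adjusted p = 0.64). fbxb-69 (I, 14283470 to 14285325; ratio 3.28 ± 0.79, SE, n = 3; limma, adjusted p = 0.00595) also overlapped, with 17.8, 42.9 and 103 CPM against 0.114, 21.6 and 1.37 CPM. The other named genes of this group, fbxb-119, fbxb-70, fbxb-114 and fbxb-2, had ratios of 3.20, 2.49, 2.43 and 2.39, and their read levels did not overlap. Each of these 4 calls was lost when a replicate was left out: fbxb-114 without replicate 1 (limma, adjusted p = 0.125), fbxb-119 and fbxb-2 without replicate 1 or without replicate 2 (limma, adjusted p of up to 0.076 and 0.108), and fbxb-70 without replicate 3 (limma, adjusted p = 0.133).

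Among the fbxb calls, a larger share of the 33 depleted than of the 14 enriched held through the other fits. Enriched calls fell over all genes too. Without 1 replicate 23.6% to 25.6% of all genes were enriched (30.3% with all) and 22.0% to 23.5% depleted (27.2%). How many calls over all genes held through every fit is not given here. Of the 14 enriched, 5 were called with all replicates and with each left out in turn (fbxb-58, fbxb-59, fbxb-62, fbxb-64 and fbxb-69), against 24 of the 33 depleted. edgeR on the summed reads called 2 fbxb genes enriched and 18 depleted, against 16.9% and 16.7% of all genes. None of the 14 enriched fbxb genes was called under every one of 14 settings, and 9 of the 33 depleted were: fbxb-3, fbxb-9, fbxb-14, fbxb-16, fbxb-42, fbxb-74, fbxb-75, fbxb-76 and fbxb-84. These settings were the reported one and alternatives in replicates, scaling, wider window, pseudocount, tool, the stricter adjusted p of 0.01 and no read minimum; the gene body alone, a read minimum of 200 and a minimum of 3 sites were not among them. fbxb-50 and fbxb-54 on II, an enriched pair that shares a site and was named after its values were seen, differed between replicates. Both had no reads in either library of replicate 1, where the ratio of an empty site is -0.59, and their other ratios ranged from 3.36 to 8.42.

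**Figure D2:**
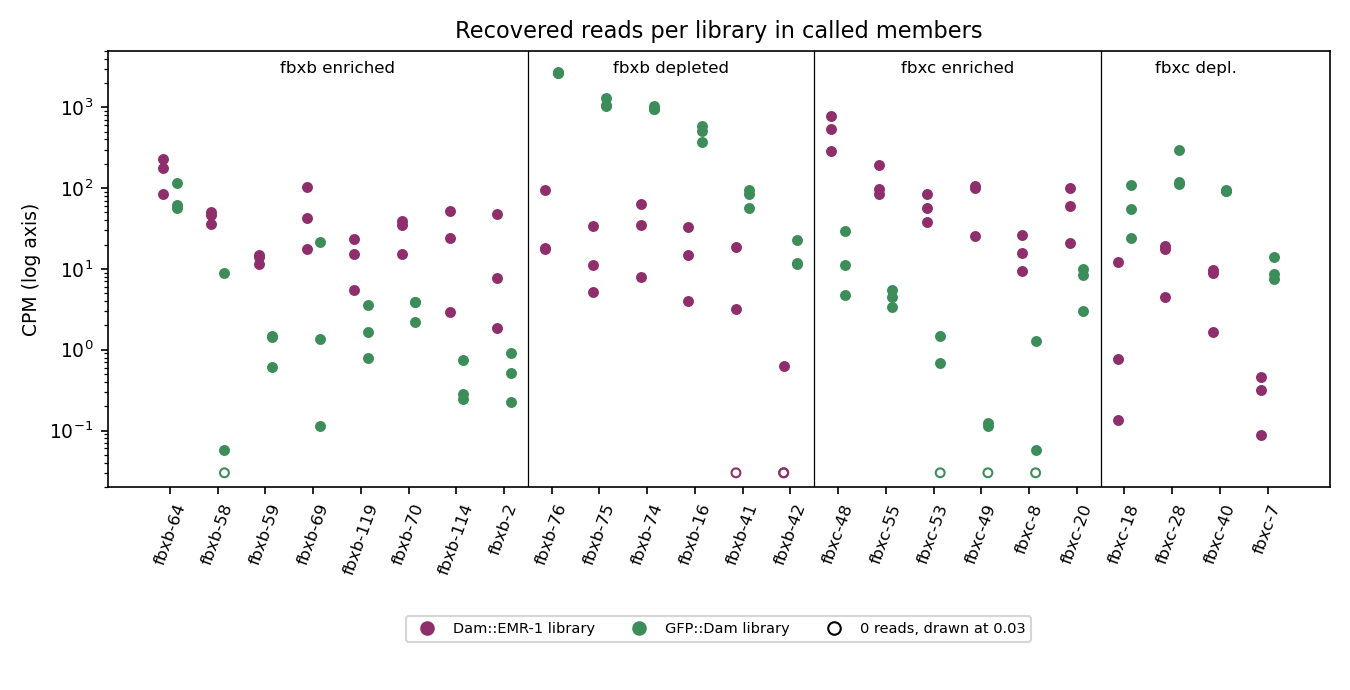
Reads in CPM of each library's total (y axis, log scale) in the 24 named called members (x axis, grouped by family and direction). Purple points are the 3 Dam::EMR-1 libraries, green points the 3 GFP::Dam libraries, and open circles libraries with 0 reads, drawn at 0.03. In fbxb-76 the GFP::Dam points lie between 2622 and 2752 CPM and the Dam::EMR-1 points at or below 94.1 CPM, and the points of fbxb-64 and of fbxb-69 mix.

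The enrichments with the smallest adjusted p among members were in fbxc genes. fbxc-48 (II, 739553 to 740908) gave 541, 288 and 773 CPM in Dam::EMR-1 and 11.1, 4.73 and 29.1 CPM in GFP::Dam. Every Dam::EMR-1 library was above every GFP::Dam library, all 9 sites were above 0, and the ratio was 5.02 ± 0.44 (SE, n = 3; limma, adjusted p = 2.89e-05). fbxc-55 (II, 3168757 to 3170900) gave 194, 98.7 and 83.4 CPM against 3.36, 5.41 and 4.46 CPM, again without overlap, for a ratio of 4.59 ± 0.60 (SE, n = 3; limma, adjusted p = 0.000206). The substrates of the fbxc proteins, like those of the fbxb proteins, are not known.

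fbxc-53 (II, 3711291 to 3713047) gave 84.4, 56.7 and 37.9 CPM in Dam::EMR-1 and 0, 1.47 and 0.686 CPM in GFP::Dam, and its ratio was 4.76 ± 0.75 (SE, n = 3; limma, adjusted p = 0.000607). fbxc-49 (II, 2084129 to 2085213) gave 99.7, 25.5 and 106 CPM against 0, 0.123 and 0.114 CPM, and its ratio was 5.28 ± 0.90 (SE, n = 3; limma, adjusted p = 0.000936). These 4 genes (fbxc-48, fbxc-49, fbxc-53 and fbxc-55) were the members called enriched under every one of the 14 settings. fbxc-20 (II, 2419136 to 2420793) was enriched by 2.95 ± 0.69 (SE, n = 3; limma, adjusted p = 0.00494) with 21.2, 59.5 and 99.1 CPM against 8.32, 9.89 and 2.97 CPM. Its groups did not overlap, and edgeR's test on reads gave an adjusted p = 0.0934.

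The depleted fbxc genes lay on the left of chromosome II, and their ratios were less negative than those of the lowest fbxb genes. fbxc-28 (II, 923821 to 925196) gave 17.4, 19.2 and 4.43 CPM in Dam::EMR-1 and 111, 292 and 118 CPM in GFP::Dam, with all 10 sites below 0 and a ratio of -4.04 ± 0.65 (SE, n = 3; limma, adjusted p = 0.000642). fbxc-40 (II, 986003 to 988670) gave 1.65, 8.90 and 9.79 CPM against 94.3, 90.8 and 91.7 CPM, for a ratio of -3.11 ± 0.65 (SE, n = 3; limma, adjusted p = 0.0027). Both genes were without overlap and were the fbxc genes called depleted under every one of the 14 settings. The lowest fbxc gene was fbxc-18 (II, 965575 to 967062), with 0.134, 0.763 and 12.1 CPM in Dam::EMR-1 and 24.3, 55.7 and 108 CPM in GFP::Dam. Its ratio was -4.71 ± 0.76 (SE, n = 3; limma, adjusted p = 0.000641; edgeR, 0.0613). fbxc-7, at -3.32 ± 0.87 (SE, n = 3; limma, adjusted p = 0.00908), lost its call without replicate 2 (adjusted p = 0.0567). Beyond fbxc-18, fbxc-28 and fbxc-40, no other fbxc gene stayed depleted through the fits that left out each replicate in turn.

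Members were set beside the other genes of the same segment. Most lie in the left segment of chromosome II, with every chromosome split into 3 equal segments. There 1076 other genes were enriched in 46.4% and depleted in 15.3% of cases, with a median ratio of 1.82. In that segment 5 of 56 fbxb genes were enriched (8.93%) and 19 depleted (33.9%), and 8 of 34 fbxc genes were enriched (23.5%) and 12 depleted (35.3%). The fbxb median was below that of the other genes of the segment in each replicate, by a mean difference of -2.86 ± 0.40, and the fbxc median by -2.24 ± 0.59 (SD, n = 3). A single tandem group (II, 907448 to 1001451) holds 18 of the 34 fbxc genes, with 11 of the 12 depleted and 1 of the 8 enriched. The 10 other genes within it had a mean ratio of -2.09. Of the 11 fbxa genes in that segment, 8 were enriched and 1 was depleted.

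Elsewhere the members followed their surroundings to different degrees. In the right segment of V, where other genes were enriched in 53.0% and depleted in 9.73% of cases, 5 of 15 fbxb genes were enriched and none was depleted, with a median of 1.02 against 2.47 for the other genes. In the right segment of I, 2 of 10 fbxb genes were enriched and 4 were depleted, against 40.0% and 24.6% of the others. In the left segment of IV, where 41.7% of other genes were enriched and 18.5% depleted, 4 of 5 fbxb genes were depleted, while 2 of 5 fbxc genes were enriched and none was depleted. Of the 7 fbxb genes tested on III, 3 were depleted and none was enriched; of the other genes, 34.4% were enriched and 26.1% depleted in the left segment of III, and 26.1% and 29.5% in the right. On X 2 of 3 fbxb genes were enriched, against 21.2% and 25.7% of the other genes in its left and right segments.

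**Figure D3:**
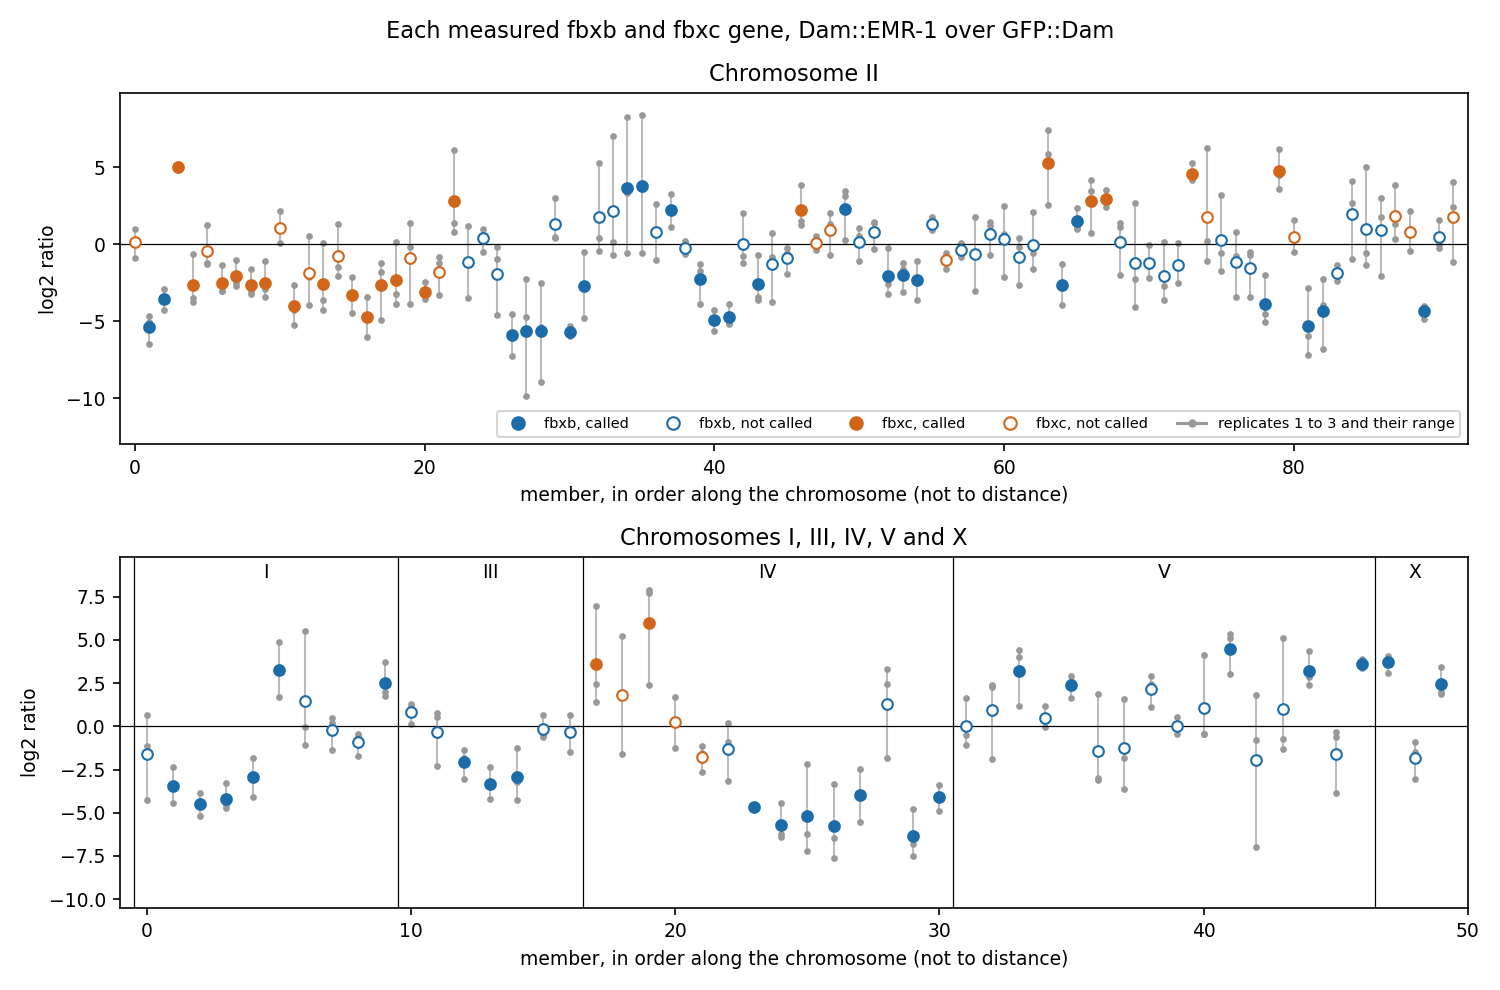
Log2 ratio of Dam::EMR-1 over GFP::Dam (y axis) of each of the 142 tested members in order along chromosome II (top) and along I, III, IV, V and X (bottom); positions on the x axis are ranks, not distances. Large points are the means of 3 replicates, filled where called, and small grey points with lines are replicates 1 to 3 and their range. The run of depleted fbxc genes stands near the left end of II, and 7 of 9 fbxb genes of IV are filled and below 0.

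Within 20 kb of a member lay 570 other tested genes, of which 219 were enriched (38.4%) and 120 depleted (21.1%), with a median ratio of 1.07. Of the 162 other genes near an fbxc gene 50.6% were enriched and 14.2% depleted, and of the 437 near an fbxb gene 35.5% and 22.7%. When the genes whose windows touch a member's were left out, 489 genes remained, of which 40.7% were enriched and 20.0% depleted. Mappability of the duplicated members was not measured, and its part in these differences was not tested.

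**Figure D4:**
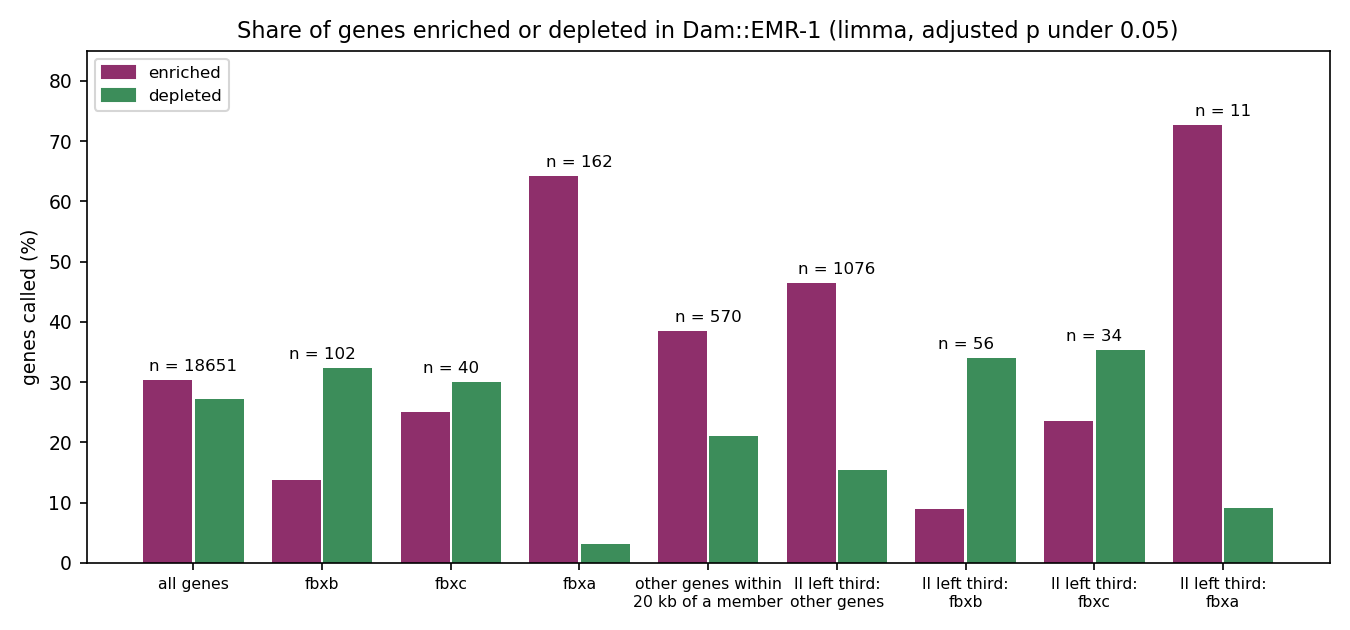
Percentage of tested genes that were enriched (purple) or depleted (green) in Dam::EMR-1 (limma, adjusted p under 0.05), with the number of genes above each pair of bars. The fbxb bars have a lower enriched share than all genes (30.3%), while the fbxc share lies closer to that of all genes. Both families lie below the other genes within 20 kb of a member (38.4%) and the other genes of the left segment of II (46.4%).

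The members lie in tandem groups, and the groups differed from each other. Runs of at least 3 members no more than 20 kb apart numbered 15 and held 99 of the 152 genes, 91 of them tested. In these groups 13 members were enriched (14.3%) and 30 depleted (33%), with a median ratio of -0.89, and among the 51 members outside them 11 were enriched (21.6%) and 15 depleted (29.4%; median 0.13). Of all genes 30.3% were enriched and 27.2% depleted. The split was wide for fbxc genes: inside groups 5 of 25 were enriched and 11 depleted (median -1.79), and outside 5 of 15 were enriched and 1 depleted (median 1.76). All 11 depleted fbxc genes inside groups, and 1 of the 5 enriched, lie in the largest group, which holds 18 of these 25 genes. The fbxc split between inside and outside thus rests on that group. For fbxb genes 8 of 66 were enriched and 19 depleted inside (median -0.84), and 6 of 36 and 14 outside (median -1.20). The order of the fbxb means inside and outside was not the same in the 3 replicates, at -1.65 and -1.26 in replicate 1, 0.20 and -0.64 in replicate 2, and -1.12 and -1.66 in replicate 3. With gaps of at most 10 kb or 50 kb there were 14 or 11 groups, with 10 enriched and 29 depleted or 14 enriched and 33 depleted members.

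The largest group spans 94.0 kb (II, 907448 to 1001451) and holds 18 fbxc and 2 fbxb genes. Of these 20 genes 11 were depleted and 1 was enriched, and their mean ratio was -1.75 ± 0.38 (SD, n = 3). The 11 depleted genes are all fbxc genes, from fbxc-31 at -2.09 to fbxc-18 at -4.71. The 10 other genes among them were low as well, with 5 depleted, none enriched and a mean of -2.09 ± 0.97, and members and genes between differed by less than the spread between replicates (0.34 ± 0.67; SD, n = 3). Among those others sdz-4 was lowest, at -4.89, and acs-15, an acyl-CoA synthetase gene, stood at -1.96; both were depleted and were named after their values were seen. Values along the group are not all independent. The depleted genes sdz-4, C32B5.18 and C32B5.7 have midpoints 52.1, 53.2 and 54.9 kb from its start, so their windows may share sites. Depleted members fbxc-27 and fbxc-31 share sites, as do fbxc-14 and fbxc-17. Sites shared between members and the genes among them were not left out. The enriched exception among the members, fbxc-42 (II, 991600 to 993179), gave 40.3, 7.89 and 1.55 CPM in Dam::EMR-1 and 0.285, 0 and 0.0572 CPM in GFP::Dam. Its 3 ratios were 6.15, 1.41 and 0.79, its adjusted p was 0.0477 in limma, and without replicate 1 the ratio fell to 1.10 (adjusted p = 0.404); without replicate 2 the adjusted p was 0.0519.

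**Figure D5:**
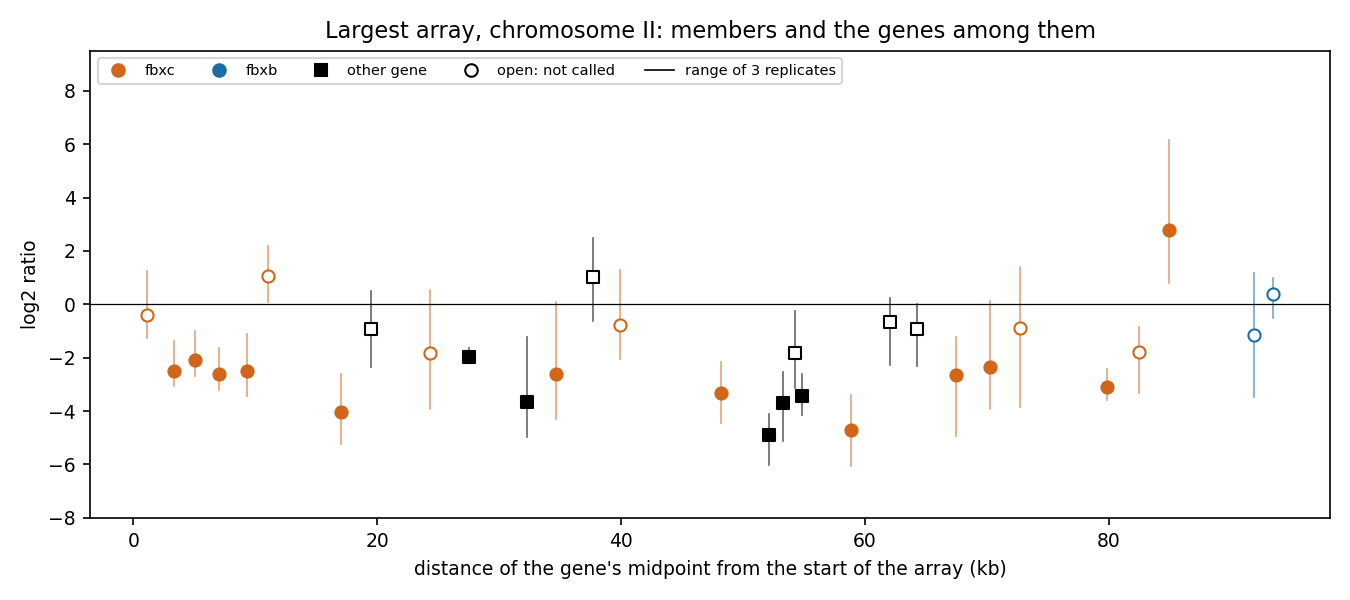
Log2 ratio of Dam::EMR-1 over GFP::Dam (y axis) along the largest group of members on chromosome II, by distance of each gene's midpoint from the start of the group (x axis, kb). Circles are members (orange fbxc, blue fbxb), squares the other genes among them, filled symbols genes called by limma, and vertical lines the range of 3 replicates. Members and the genes among them lie mostly below 0, and fbxc-42, at 2.78, has a range from 0.79 to 6.15.

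Other groups showed other patterns. In a group of 4 fbxb genes on I (14083045 to 14096348) all 4 were depleted, with a mean ratio of -3.76 ± 0.30, and in one on II (1039697 to 1049949) 3 of 4 were, with -4.76 ± 2.59 (SD, n = 3). Within the 5.59 kb of the group around fbxb-16, ratios ran from -0.27 in fbxb-21 to -4.93 in fbxb-16, although neighbouring members there share sites. The group with the second most members (II, 1676388 to 1725693; 9 fbxb and 3 fbxc genes) had a mean of -0.03 ± 0.85, with 2 of its 11 tested members enriched and 2 depleted. Its lowest member was fbxb-26 at -2.59 ± 0.63 (SE, n = 3; limma, adjusted p = 0.00591), with 45.5, 204 and 26 CPM in Dam::EMR-1 and 401, 344 and 302 CPM in GFP::Dam, which do not overlap. Its highest was fbxb-47 at 2.31 ± 0.87 (SE, n = 3; limma, adjusted p = 0.0438), a call lost without replicate 2 (adjusted p = 0.171) or replicate 3 (adjusted p = 0.206).

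In 10 groups other tested genes lie between the members, and the members' mean was below theirs in 5 and above it in 5. Around fbxc-49 (II, 2051672 to 2093876) the 4 members had a mean of 0.45 ± 0.59 and the 10 other genes, 7 of them enriched, a mean of 3.19 ± 0.28, a difference of -2.74 ± 0.87 (SD, n = 3). In the group of 8 fbxb genes on V (19282614 to 19330757) the members had a mean of 1.05 ± 1.66 and the 11 genes between them 2.60 ± 1.16, a difference of -1.55 ± 0.84 (SD, n = 3). In the group on II from 1039697 to 1049949 the members were below the single gene between them, by -4.05 ± 0.67, and in the group on III (140072 to 146469) they were above it, by 3.03 ± 0.58 (SD, n = 3). In the other 6 of these groups the difference lay between -0.93 and 0.49. The groups described here were picked after their values were seen, and the differences are descriptions without a test.

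A regular array of 10 fbxc genes on IV (891239 to 911196) was mostly out of reach. Its genes alternate between bodies of 1376 bp and of 1781 or 1782 bp, and genes of the same kind start 4152 or 4153 bp apart. For 7 of the 10 (fbxc-1, fbxc-2, fbxc-3, fbxc-4, fbxc-5, fbxc-10 and fbxc-11) no site is listed in the window, and the table lists no site with fewer than 10 reads. Whether these windows hold no GATC or reads that were not placed was not tested. The 3 others had 1 or 2 listed sites each. fbxc-8 (IV, 909415 to 911196) gave 15.7, 9.35 and 26.6 CPM in Dam::EMR-1 and 0, 1.29 and 0.0572 CPM in GFP::Dam at its only site. Its groups did not overlap, and its ratio of 5.99 ± 1.11 (SE, n = 3; limma, adjusted p = 0.00145; edgeR, 0.0871) was the highest of all members. fbxc-9 was enriched at 3.61 ± 1.16 (SE, n = 3; limma, adjusted p = 0.0223), and fbxc-12, at 1.81 ± 1.24, was not called (limma, adjusted p = 0.232), with ratios of 1.81, 5.23 and -1.62 in the 3 replicates. It passed the threshold without replicate 3 (3.52, adjusted p = 0.0342).

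Bins of fixed width were read for the same regions. Over bins of 2 kb, 15 of 199 tested bins overlapping a member were enriched (7.54%, against 19.2% of all bins) and 39 depleted (19.6%, against 17.2%). For fbxb genes these counts were 4 and 28 of 133 bins, and for fbxc genes 11 and 11 of 67. Under total-read scaling, 20 member bins were enriched and 31 depleted (10.1% and 15.6%, against 25.1% and 15.1% of all bins). Over bins of 10 kb, 25 of 111 were enriched and as many, 25, depleted (22.5% each, against 28.4% and 25.2% of all bins), and the median ratio was 0.09. That median was -0.38 without replicate 2 and 0.69 under total-read scaling, under which 29 of the bins were enriched and 21 depleted (34.6% and 20.3% of all bins). Of the 78 bins with fbxb genes 13 were enriched and 19 depleted (16.7% and 24.4%), and of the 35 with fbxc genes 12 and 7 (34.3% and 20.0%). The fbxc gene calls were 10 enriched and 12 depleted of 40. Both pairs of fbxc shares were not far from those of all bins or all genes. The units also differ, as a single tandem group holds 11 of the 12 depleted fbxc genes. Of the 24 enriched members 13 had their midpoint in an enriched 10-kb bin and none in a depleted one, and of the 45 depleted members 26 lay in a depleted bin and none in an enriched one. Across the 142 members the gene and 10-kb ratios correlated at r = 0.82, a description only, since both come from the same libraries and sites.

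At single sites too, the share higher in Dam::EMR-1 was below that of all sites. Member windows hold 746 listed GATC sites, of which 57 lie in the windows of more than 1 member. An adjusted p is given for 626 of them in the authors' deposited table, and under 0.05 there were 52 higher in Dam::EMR-1 (8.31%, against 18.3% of all such sites) and 143 lower (22.8%, against 19.1%). In the authors' deposited table the higher and lower shares were 5.72% and 23.6% of 437 fbxb sites, and 14.3% and 21.2% of 189 fbxc sites. Of the 24 enriched members 18 had every site above 0, and 32 of the 45 depleted had every site below it. A gene's ratio is the mean over these same sites, so much of this follows from the calls themselves. The share over all called genes is not given here. The precision differs widely, as the busiest site held a median of 46.2% of a member's reads and 6 tested members rest on a single site, of which 4 were enriched.

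Members varied more between replicates than most genes. All 3 ratios had the same sign in 82 of the 142 members (57.7%), against 73.7% of all tested genes, and the median SD over replicates was 1.41 against 1.16. The same sign was seen in 22 of the 24 enriched and 43 of the 45 depleted members. Replicate 2 had the highest median in both families. At the read minimum, fbxb-95 (64 reads) and fbxb-65 (69 reads) were just inside and had ratios of 0.64 and -1.60, neither called. Just outside were fbxb-19 with 43 reads and fbxb-85 with 15, whose replicate ratios ran from -0.59 to 3.90 and from -2.16 to 0.40, and fbxc-58 had 11 reads.

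Genes of the SCF ligase and its regulators, taken as 1 list, were often depleted. Of 43 tested genes for SCF subunits, their NEDD8 regulators and F-box proteins known by other names, 21 were depleted (48.8%, against 27.2% of all genes) and 2 enriched (4.65%, against 30.3%), with a median ratio of -2.38. The cullin gene cul-1 gave 8.88, 2.67 and 0.173 CPM in Dam::EMR-1 and 26.5, 32.9 and 31.7 CPM in GFP::Dam, without overlap, for a ratio of -3.68 (limma, adjusted p = 0.00233; edgeR, 0.0667). The RING subunit gene rbx-1 stood at -6.35, the Skp1-related skr-1 at -6.27 (edgeR, adjusted p = 0.0903), the NEDD8 ligation factor gene dcn-1 at -5.17, and sel-10, an F-box gene that restrains Notch signalling, at -4.82; all were depleted. The other cullin and RING genes of the list, cul-6 at -1.15 and rbx-2 at -2.42, were not called (limma, adjusted p = 0.299 and 0.122). Their ratios varied widely between replicates (SD 2.78 and 3.81). The list was not set beside other genes of the same segments. Among the 19 Skp1-related skr genes, themselves an expanded family in worms, 8 were depleted (42.1%) and 2 were enriched. The enriched ones were skr-6 at 4.48, which had no reads in any GFP::Dam library, and skr-4 at 4.29 (limma, adjusted p = 0.00214 and 0.00521; edgeR, 0.0138 and 0.0503). Of the 24 genes outside the skr family 13 were depleted (54.2%) and none enriched. The paralogous genes fog-2 and ftr-1, both of which encode F-box proteins, at 0.90 and -0.52, were not called.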

How the data were processed

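Genomic DNA of 6 DamID libraries was sequenced. The submitters' processing notes name the build ce11 and the tool DESeq2 and give neither role nor version; the aligner is not given in the sources used here. Per the file headers, each deposited table (GATC sites; 2-, 10- and 100-kb bins) holds a log2 ratio per replicate number, a count of raw reads summed over libraries, an average log2 value from the authors and their adjusted p-value. The numbers show that a deposited log2 ratio equals log2 of (reads + 1) over (reads + 1), less a constant per column (0.590, 0.336 and 0.162 for GATC sites). Reads per library were recovered with a tolerance of 4e-12: the solution was unique for 90.2% of sites and 99.9% of 100-kb bins, and 96.7% of member reads lie at unique sites. Ambiguous sites took the solution with the smallest product of common factors, right for 69.0% of such sites in simulated tables; unique solutions were all right there. Depth is the library total of the 100-kb table, and no per-sample column was left unused.

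Genes came from a RefSeq table of WBcel235. limma 3.58.1 (R 4.3.3) was fitted with an intercept to the 3 ratios of every gene with 60 reads, with a variance trend on log2 reads and the robust option; two-sided p-values were adjusted by Benjamini-Hochberg, with a threshold of 0.05; bins likewise. It was also run on simulated data with few changed genes and the same dispersion for every gene. These settings differ from the data, and no support for the calls is drawn from that run. Alternatives were edgeR 4.0.16 and DESeq2 1.42.0 on summed reads, limma on log2(CPM + 1), other read minimums, windows, pseudocounts and scaling, an adjusted p of 0.01 and each replicate left out; a minimum of 3 sites was chosen after seeing the data. The genes named are, with at least 200 reads and ratios of the same sign, the 8 enriched and 6 depleted fbxb and the 6 enriched and 4 depleted fbxc genes of smallest adjusted p, the extremes of the 3 largest groups, genes nearest the read minimum, cul-1, skr-1 and up to 3 SCF genes per direction. Other genes named were chosen after their values were seen. The members and lists were chosen with earlier results of these data known. The deposited ratios, and so limma's test on them, set libraries of the same number against each other. The data gave no sign that the numbers pair libraries: deviations of same-numbered libraries correlated at -0.0058, 0.0072 and 0.0176 over 18651 genes.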

Additional observations from a re-analysis of the deposited data

How the results depend on the processing

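Under the alternatives run, the median of each family moved by less than its spread between replicates, the counts in tandem groups stayed within 1.5 times, and the ratio of no named gene turned direction. Median ratios of member bins did turn: that of 10-kb bins (0.09) was -0.38 without replicate 2, that of fbxb 10-kb bins (-0.16) was 0.44 under total-read scaling and 0.23 without replicate 1, and that of fbxc 2-kb bins (-0.38) was 0.24 under that scaling and 0.22 and 0.20 without replicates 1 and 3. Without 1 replicate, enriched members numbered 15 to 21 (24 with all), enriched fbxb 8 to 10 (14), enriched fbxc 6 to 11 (10) and depleted fbxc 5 to 8 (12). Calls over all genes fell too, to 23.6% to 25.6% enriched (30.3% with all) and 22.0% to 23.5% depleted (27.2%). Enriched and depleted 2-kb bins numbered 5 to 7 (15) and 11 to 18 (39), and enriched 10-kb bins 12 to 17 (25). Among all 41117 2-kb bins 2174 to 2774 were then enriched (7878) and 3164 to 3666 depleted (7056). Among all 9914 10-kb bins 1850 to 2183 were enriched (2812). edgeR called, first with the replicate number as a block and then without it, 5 and 7 members enriched and 20 and 23 depleted; 0 and 2 fbxb enriched and 15 and 18 depleted; 5 and 5 fbxc enriched and 5 and 5 depleted; and 1 and 1 SCF genes enriched, with 12 depleted under the block (21). In the same order, edgeR called 12.4% and 16.9% of all genes enriched and 15.0% and 16.7% depleted. limma on log2(CPM + 1) per library, which does not use the numbers, called 22 members enriched and 36 depleted (30.8% and 20.6% of all genes). DESeq2 called 7 of 96 fbxb genes enriched, against 27.5% of all genes. At an adjusted p of 0.01, 11 members were enriched, with 5 fbxb, 6 fbxc and 4 depleted fbxc. Of all genes 20.4% were then enriched and 18.9% depleted. Of the member 2-kb bins 3 and 5 were enriched and depleted, against 932 and 1723 of all 41117. For 10-kb bins the counts were 12 and 14, against 1541 and 1412 of all 9914. With the gene body alone 9 fbxb genes were enriched and 6 fbxc genes depleted (27.3% and 23.4% of all genes). SCF genes enriched were 1 with at least 3 sites and 4 in limma on log2(CPM + 1). Causes were not tested. Total-read scaling raises site ratios by 0.238, 0.386 and 0.172 in replicates 1 to 3, and 2-kb ratios by 0.613, 0.896 and 0.361. For the 37 named genes, 520 of 581 alternative values kept direction and call, 59 lost the call and 2 gained it. Leaving out members with near-identical proteins was not run, because no protein sequences were used here. Intervals and calls of members with few reads or a single site are limited by depth, and PCR duplicates could not be removed.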

Other observations

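Genes annotated as pseudogenes also carry fbxb and fbxc names, and 17 of them had at least 60 reads. They were left out of the counts above and are given as values, with no test. Their median ratio was -1.50, and 5 lay above 0. All 3 replicates were above 0 in 4 of them and below 0 in 8. The lowest were fbxb-80 on IV at -5.34 ± 1.20, fbxb-12 on II at -4.51 ± 2.84 and fbxb-94 on I at -4.33 ± 0.23 (SD, n = 3). fbxb-94 lies between the depleted genes fbxb-56 and fbxb-101, and fbxb-80 lies near the depleted genes fbxb-78 and fbxb-77. The highest were fbxb-27 on II at 3.32 ± 1.80 and fbxc-37 on X at 2.79 ± 0.83 (SD, n = 3). fbxb-28, next to fbxc-42 in the largest group, had ratios of 7.96, -0.34 and -0.16, of which the last 2 are those of a site without reads in either library.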
